A study of Homo sapiens with 6 samples.

Results

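The 10 genes of cellular calcium entry and calcium pumping described here were measured in ME180 cells after knockdown of the kinase SGK1: the channels TRPV6, TRPV4, TRPM4, TRPM7, ORAI1 and ORAI3, the calcium sensors STIM1 and STIM2, and the pumps ATP2A2 and ATP2B1. They were picked by gene name from a table of 58302 genes, and all 10 names had a single row. ME180 is an epithelial line of cervical cancer origin. The cells had been transfected for 48 h with an siRNA against SGK1 (siSGK1, 3 libraries) or with a control siRNA (siControl, 3 libraries). The libraries of each group are described as biological repeats and carry the numbers 2, 3 and 4. All cells were transfected, and no siRNA sequence was used here.

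Calcium enters epithelial cells through several kinds of channel. TRPV6 is a highly calcium-selective channel of transporting epithelia, and TRPV4 is a cation channel opened by osmotic, mechanical and thermal stimuli. TRPM4 conducts monovalent cations when cytosolic calcium rises and so depolarizes the membrane, and TRPM7 is a channel for divalent cations fused to a kinase. In store-operated entry, the STIM proteins of the endoplasmic reticulum (ER) sense loss of stored calcium and open plasma membrane pores made of ORAI subunits. ATP2A2 (SERCA2) pumps calcium back into the ER, and ATP2B1 (PMCA1) pumps it out of the cell. SGK1 is a serine/threonine kinase known for its action on epithelial channels and transporters.

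Promoter windows of the 3 most strongly lowered genes that have an entry in the RefSeq promoter table (TRPV6, TRPM4, ORAI3), and of ATP2B1, whose values were higher in siSGK1 cells, are shown so that their composition can be compared. Each runs from 250 bases before to 50 bases after the annotated start (RefSeq, GRCh38.p14), 5' to 3' on the gene's strand, and capitals mark matches to the motifs listed after them. The ATP2B1 window is the one of its 2 entries that lies nearer to the start of the gene in the deposited table.
TRPV6 promoter, chr7:142885696-142885995, minus strand: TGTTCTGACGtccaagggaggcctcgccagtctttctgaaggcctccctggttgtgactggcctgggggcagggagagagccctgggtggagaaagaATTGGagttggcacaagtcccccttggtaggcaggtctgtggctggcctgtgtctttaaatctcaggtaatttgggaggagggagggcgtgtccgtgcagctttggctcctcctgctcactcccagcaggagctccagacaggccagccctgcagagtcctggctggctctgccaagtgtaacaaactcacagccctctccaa
TRPM4 promoter, chr19:49157542-49157841, plus strand: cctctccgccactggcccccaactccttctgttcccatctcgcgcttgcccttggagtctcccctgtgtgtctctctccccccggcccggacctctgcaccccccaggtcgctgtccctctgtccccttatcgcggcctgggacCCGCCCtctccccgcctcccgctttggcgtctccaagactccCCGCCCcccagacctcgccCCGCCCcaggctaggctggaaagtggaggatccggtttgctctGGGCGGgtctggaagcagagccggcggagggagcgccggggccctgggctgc
ORAI3 promoter, chr16:30948818-30949117, plus strand: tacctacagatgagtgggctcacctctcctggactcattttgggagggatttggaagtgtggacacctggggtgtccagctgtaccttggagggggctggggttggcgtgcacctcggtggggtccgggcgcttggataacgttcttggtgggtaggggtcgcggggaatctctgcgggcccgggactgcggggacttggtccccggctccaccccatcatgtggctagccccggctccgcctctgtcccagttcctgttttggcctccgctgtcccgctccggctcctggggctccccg
ATP2B1 promoter, chr12:89709317-89709616, minus strand: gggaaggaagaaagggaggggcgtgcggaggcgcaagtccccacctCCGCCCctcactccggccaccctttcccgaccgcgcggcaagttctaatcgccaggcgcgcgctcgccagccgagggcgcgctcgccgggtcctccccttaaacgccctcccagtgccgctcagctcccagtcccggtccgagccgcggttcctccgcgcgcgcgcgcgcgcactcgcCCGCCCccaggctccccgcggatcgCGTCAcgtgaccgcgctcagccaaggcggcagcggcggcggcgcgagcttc

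The TRPV6 window stood apart from the ATP2B1 window in CpG content. Observed over expected CpG was 0.152 for TRPV6, a value that 15.8% of the 35116 windows in the table fell below, against 1.15 for ATP2B1, which 98.7% fell below. TRPM4 and ORAI3 lay between them at 0.586 and 0.53, near the median of 0.579. Among the other genes with a window, TRPM7 and STIM2 had values of 1.19 and 1.15, STIM1 had 0.303 and ATP2A2 had 0.575, where STIM1 and ATP2A2 have 4 and 2 entries and the one nearest the gene start was used. Both strands were searched for 9 motifs: the SP1 box GGGCGG, the CCAAT box, the TATA box TATAAA, the AP-1 site TGANTCA, the CRE core TGACG, the vitamin D receptor core AGTTCA, the nuclear receptor core AGGTCA, the glucocorticoid receptor core AGAACA and the KLF4 box GGGTGTG. The SP1 box occurred in 45% of all windows and in those of TRPM4, TRPM7, STIM2 and ATP2B1, with 4 copies in TRPM4. AGAACA occurred in 14.8% of all windows and in those of TRPV6, whose copy lies on the opposite strand and begins at position -250, and STIM1. The TGACG of TRPV6 begins at position -245 and shares 1 base with it, and TGACG was found in 24.6% of all windows. CCAAT was in 34.6% of windows and in those of TRPV6 and STIM2, and AGTTCA was in 10.4% and in that of ATP2A2. The TATA box, the AP-1 site, the nuclear receptor core and the KLF4 box, present in 11.5%, 7.71%, 13.8% and 7.56% of windows, were found in none of the 8 windows of these genes. The ORAI3 window held none of the motifs.

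Levels are in FPKM, which counts fragments per length of gene and per size of library, and reads were recovered from them as whole numbers: 28405647 to 35242643 per siSGK1 library and 27262794 to 27874948 per siControl library. SGK1 itself was at 1.58, 1.70 and 1.81 FPKM in siSGK1 cells, against 3.91, 4.27 and 4.17 FPKM in siControl cells, that is 41.2% of the control mean. All 6 epithelial marker genes were expressed, and KRT5, KRT8 and KRT19 were called lower in siSGK1 cells while EPCAM averaged 36.8 FPKM in siSGK1 and 36.9 FPKM in siControl cells. Of 11 markers of immune, endothelial, stromal and muscle cells, COL1A1 alone passed the level filter, PECAM1 was at 0 in every library, and the 11 summed to 5.74 to 6.88 FPKM in siSGK1 and 6.63 to 6.97 FPKM in siControl libraries, most of it COL1A1. The endothelial marker VWF measured 0.583, 0.448 and 0.557 FPKM in siSGK1 cells, against 1.46, 1.44 and 1.14 FPKM in siControl cells, at 39.4% of the control mean, and was called lower in the fit without a level filter (limma adjusted p = 0.0081). Its part in the results below was not tested. Libraries of a group were not copies of each other, with a chi-square per degree of freedom of 3.14 to 7.60 in siSGK1 and 3.17 to 5.26 in siControl pairs. Both siSGK1 pairs that include replicate 3 lay above 7 (7.60 and 7.07), so by total reads that library stood somewhat apart. The library size behind its FPKM was 1.093 times its reads, against 1.035 and 1.040 in replicates 2 and 4. The chi-square does not carry that scaling, and how much of it comes from there was not tested. In bulk RNA, fewer cells expressing a gene and less RNA per cell cannot be told apart.

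Of the 10 genes, 9 passed the filter of a mean of at least 1 FPKM, and ATP2B1 did not. Of these 9 genes 6 were called lower in siSGK1 cells, at an adjusted p below 0.05, and 0 were called higher. The number higher was 0 as well at an unadjusted limma p below 0.05 and with voom on recovered reads. The calls are those of limma on log2(FPKM + 0.5), with Benjamini-Hochberg adjustment over 11945 genes. Among all tested genes 22.7% were called lower and 17.9% higher, so many genes of the table changed. The median log2 change was -0.23 over the 9 genes and -0.006 over all tested genes. All siSGK1 libraries lay below all siControl libraries for 8 of the 9, against 28.8% of all tested genes. Higher genes made up 44.2% of all called genes, a share that was 73.6% with total-read scaling and 82.8% with TPM scaling, because these scalings move the median log2 change of all genes to 0.12 and 0.18. The log2 changes below are therefore relative to the median gene.

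**Figure D1:**
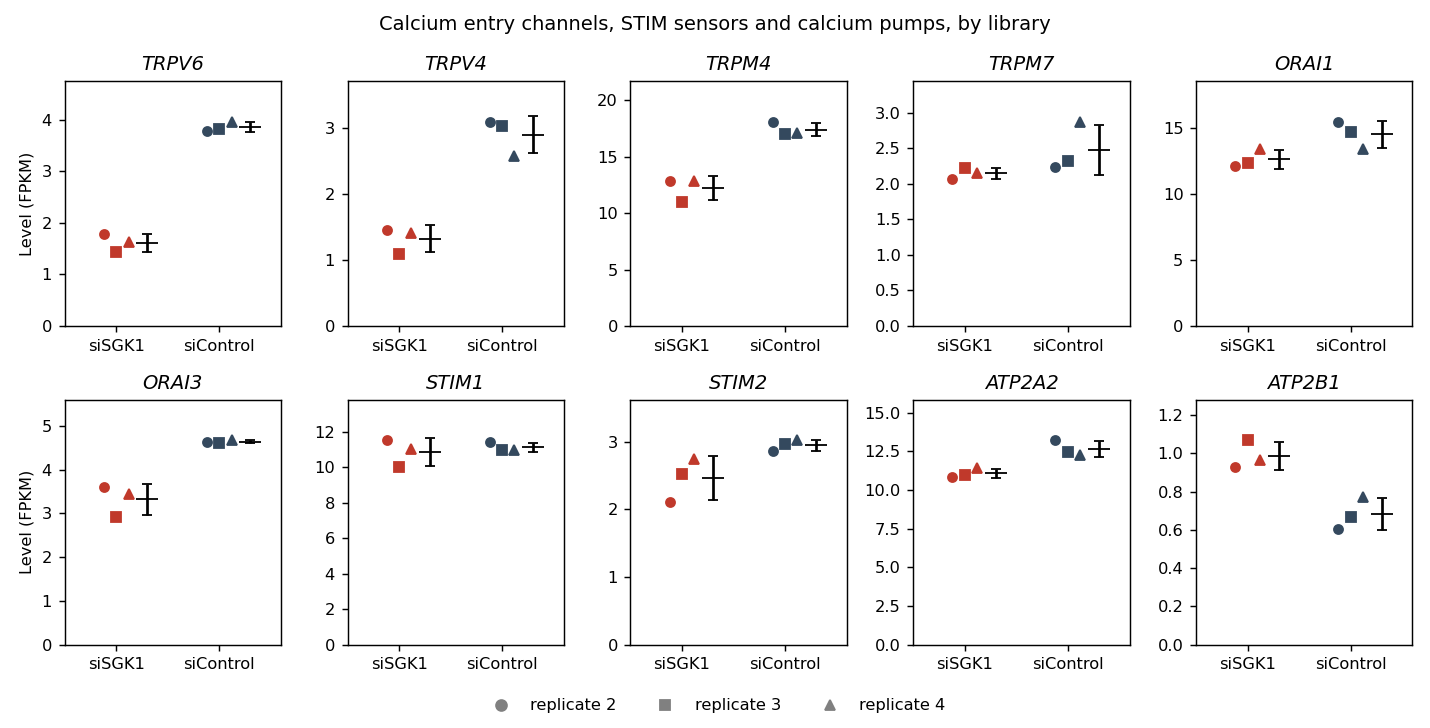
Level in FPKM of each gene in each library, siSGK1 (red) left of siControl (dark), with the mean and SD (n = 3 each) as a bar beside the points. Relative to the siControl mean TRPV6 and TRPV4 show the widest gaps, with TRPV6 at 1.44 to 1.78 FPKM in siSGK1 and 3.79 to 3.96 FPKM in siControl libraries, and the groups overlap for STIM1.

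TRPV6 and TRPV4 had the largest falls. TRPV6 (ENSG00000165125, chromosome 7, 142871203 to 142885762, minus strand, GRCh38) measured 1.78, 1.44 and 1.63 FPKM in siSGK1 replicates 2, 3 and 4, against 3.79, 3.83 and 3.96 FPKM in siControl replicates 2, 3 and 4. The highest siSGK1 library lay well below the lowest siControl library, and siSGK1 replicate 3 was the lowest of all. The siSGK1 mean was 41.8% of the siControl mean, close to the 41.2% of SGK1 itself, and the log2 change was -1.05 (SE 0.07, limma adjusted p = 3.01e-05). Only 0.745% of tested genes had a more negative log2 change. These values rest on 568 to 710 reads per siSGK1 library and 1186 to 1274 per siControl library.

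TRPV4 (ENSG00000111199, chromosome 12, 109783085 to 109833401, minus strand) measured 1.46, 1.08 and 1.42 FPKM in siSGK1 cells, against 3.09, 3.03 and 2.58 FPKM in siControl cells. The groups did not overlap, and siSGK1 replicate 3 was again the lowest. The mean stood at 45.5% of control, with a log2 change of -0.90 (SE 0.10, limma adjusted p = 2.82e-04). With 135 to 195 reads per siSGK1 library and 261 to 305 per siControl library it had the fewest reads of the 10 genes in siSGK1 cells. Both TRPV6 and TRPV4 were called lower with a mean at least 1.5-fold lower, as were 4.74% of tested genes. Exons of an untested gene overlap each of them on the opposite strand (AC245427.1 over TRPV6, the microRNA gene MIR4497 over TRPV4). No source used here says whether counting used strand, so some reads may belong to these partners.

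TRPM4 fell and TRPM7 did not pass the test. TRPM4 (ENSG00000130529, chromosome 19, 49157741 to 49211836, plus strand), the calcium-activated monovalent cation channel, measured 12.8, 11.02 and 12.8 FPKM in siSGK1 cells, against 18.1, 17.0 and 17.1 FPKM in siControl cells. Every siSGK1 library was below every siControl library, at 70.2% of the control mean, and the log2 change was -0.50 (SE 0.07, limma adjusted p = 5.79e-04). TRPM4 had 2411 to 3105 reads per siSGK1 library and 2920 to 3137 per siControl library, so counting error is small beside the difference. TRPM7 (ENSG00000092439, chromosome 15, 50552473 to 50686815, minus strand), the channel kinase, measured 2.07, 2.22 and 2.16 FPKM in siSGK1 cells, against 2.23, 2.32 and 2.87 FPKM in siControl cells. Its groups did not overlap, but siSGK1 replicate 3 and siControl replicate 2 nearly met and siControl replicate 4 lay far above replicates 2 and 3. The log2 change of TRPM7 was -0.16 with a 95% interval of -0.37 to 0.04 (limma adjusted p = 0.19). The TRPM4 estimate of -0.50 lies outside that interval, but the 95% interval of TRPM4, -0.65 to -0.35, overlaps it. Exons of an untested gene on the opposite strand, AC084756.1, overlap those of TRPM7 over 502 bases, more than the 69 bases for TRPV6 and 52 for TRPV4, so some of its reads are uncertain.

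Both ORAI pores were called lower, ORAI3 with the larger log2 change, while ORAI1 lost its call and was at 0.003 with TPM scaling. ORAI3 (ENSG00000175938, chromosome 16, 30949066 to 30956461, plus strand) measured 3.60, 2.92 and 3.45 FPKM in siSGK1 cells, against 4.64, 4.61 and 4.67 FPKM in siControl cells. The siControl libraries were almost equal and the siSGK1 libraries all lay below them, at 71.6% of the control mean (log2 change -0.43, SE 0.07, limma adjusted p = 0.0022). The exons of ORAI3 overlap those of an untested gene on the same strand, AC135048.1, by up to 1135 bases for a single pair of exons. The deposited gene length of ORAI3 is 2643 bases, and this is the longest exon overlap found for the genes described here. Reads of the shared stretch are uncertain whether or not counting used strand. Their part in the change of ORAI3 was not tested. ORAI1 (ENSG00000276045, chromosome 12, 121626550 to 121642677, plus strand), the main pore subunit of store-operated entry, measured 12.1, 12.4 and 13.4 FPKM in siSGK1 cells, against 15.5, 14.7 and 13.5 FPKM in siControl cells. Replicate 4 of siSGK1 and replicate 4 of siControl were separated by a small margin, 13.43 and 13.46 FPKM. The log2 change of ORAI1 was -0.19 (SE 0.06, limma adjusted p = 0.040), but it was 0.003 and not called with TPM scaling (limma adjusted p = 0.97). Less the median change of all genes it lay between -0.19 and -0.17 as deposited and under 4 other scalings. For total-read and TPM scaling, which multiply each library by a constant, that is nearly fixed in advance. The call of ORAI1 was lost without siSGK1 replicate 2 or 3 and without siControl replicate 2 or 3 (limma adjusted p = 0.11, 0.094, 0.12 and 0.11).

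The STIM sensors did not pass the test. STIM1 (ENSG00000167323, chromosome 11, 3854527 to 4093210, plus strand) measured 11.51, 10.01 and 11.03 FPKM in siSGK1 cells, against 11.40, 10.98 and 10.97 FPKM in siControl cells. The groups overlapped, with the highest and the lowest value both in siSGK1 libraries. Its log2 change was -0.04 with a 95% interval of -0.17 to 0.10 (limma adjusted p = 0.67), and it was 0.16 and called higher with TPM scaling (limma adjusted p = 0.019), a scaling under which the median gene stood at 0.18. The microRNA gene MIR4687 overlaps exons of STIM1 on the same strand by up to 80 bases. STIM2 (ENSG00000109689, chromosome 4, 26857678 to 27025381, plus strand) measured 2.10, 2.52 and 2.74 FPKM in siSGK1 cells, against 2.86, 2.96 and 3.02 FPKM in siControl cells. All siSGK1 libraries were lower, with replicate 2 farthest from the rest, and the log2 change was -0.23 with a 95% interval of -0.42 to -0.03 (limma adjusted p = 0.065). STIM2 was called lower with voom on the recovered reads and without siSGK1 replicate 4 (adjusted p = 0.025 and 0.035).

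Of the pumps, ATP2A2 was called lower and ATP2B1 lay below the level filter, so it was not tested beside the others. ATP2A2 (ENSG00000174437, chromosome 12, 110280756 to 110351093, plus strand), the ER pump, measured 10.87, 10.99 and 11.42 FPKM in siSGK1 cells, against 13.2, 12.5 and 12.3 FPKM in siControl cells. The groups did not overlap and the siSGK1 mean was 87.7% of control (log2 change -0.18, SE 0.05, limma adjusted p = 0.018), while with TPM scaling the change was 0.01 and not called (limma adjusted p = 0.81). The call was also lost without siSGK1 replicate 2 and without siControl replicate 2 (limma adjusted p = 0.059 and 0.062). ATP2B1 (ENSG00000070961, chromosome 12, 89588049 to 89709300, minus strand), the plasma membrane pump, measured 0.931, 1.07 and 0.963 FPKM in siSGK1 cells, against 0.606, 0.670 and 0.774 FPKM in siControl cells. It was the only one of the 10 genes with all siSGK1 libraries above all siControl libraries, on 260 to 336 reads per siSGK1 and 151 to 198 per siControl library. TRPV4, which was tested, had 135 to 195 and 261 to 305 reads. The filter depends on the gene length. With the longest coding transcript as the length ATP2B1 averaged 1.33 in siSGK1 and 0.922 in siControl cells. Without a level filter 13.8% of 31878 genes had all siSGK1 libraries above all siControl libraries. These are all genes with any read, and 11945 of them reached a mean of 1 FPKM. Genes with very few reads can hardly be placed so or called, so shares over all 31878 can be too low for ATP2B1. The ATP2B1 mean was 145% of control. In the fit without a level filter its log2 change was 0.33 (SE 0.10, limma adjusted p = 0.088) and it was not called. In that fit 5.25% of genes were called higher, against 17.9% of the 11945 genes in the main fit.

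**Figure D2:**
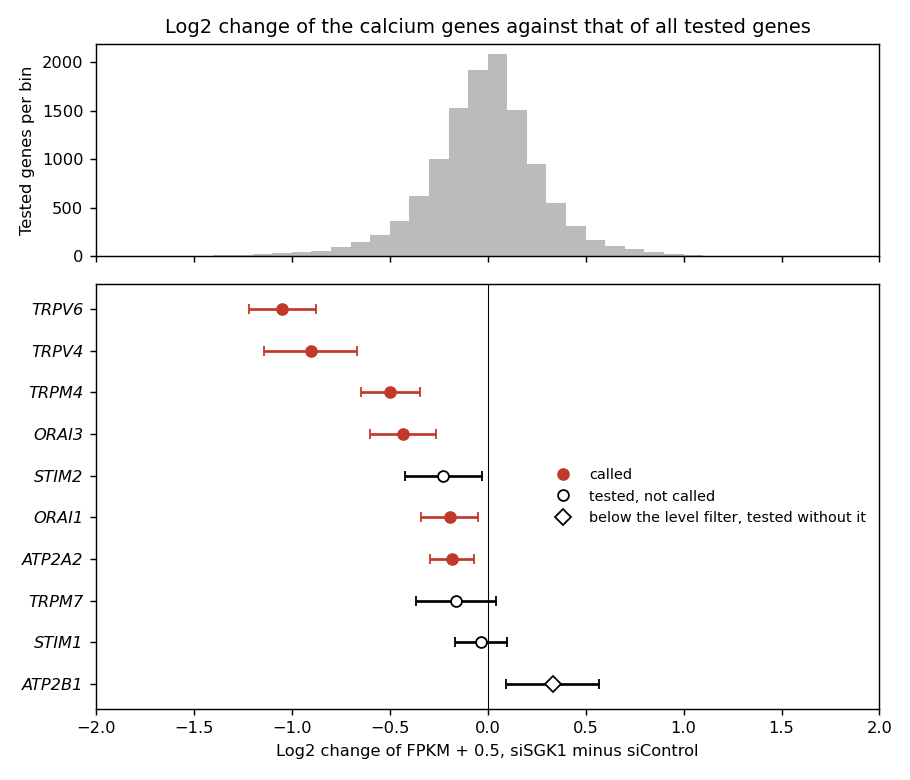
Lower panel: log2 change of FPKM + 0.5, siSGK1 minus siControl, with 95% intervals from limma, for each gene (filled: called; open: not called; diamond: ATP2B1, fitted without the level filter). Upper panel: number of tested genes per 0.1 log2 units. TRPV6 and TRPV4 lie at -1.05 and -0.90, in the lower tail of all genes, while ORAI1 (-0.19), ATP2A2 (-0.18) and TRPM7 (-0.16) lie within its bulk, and these 3 are at 0.003, 0.01 and 0.007 with TPM scaling.

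Whether a gene changed more than another was compared as a ratio of FPKM within each library, for 5 pairs chosen by role. The exact two-sided permutation test over 3 against 3 libraries cannot give a p below 0.1, which is 0.17 after adjustment over the 5 pairs, so no pair could pass. The TRPV6 to TRPM7 ratio was 0.862, 0.647 and 0.753 in siSGK1 cells, against 1.70, 1.65 and 1.38 in siControl cells (exact p = 0.1). With the longest coding transcript as the gene length it was 2.96, 2.22 and 2.59 in siSGK1 cells, against 5.83, 5.68 and 4.74 in siControl cells, so which of the pair is the more abundant in siSGK1 cells depends on the length used, while the change of the ratio does not. The ORAI3 to ORAI1 ratio averaged 0.264 ± 0.031 in siSGK1 and 0.320 ± 0.024 in siControl cells (SD, n = 3 each, exact p = 0.1), with siSGK1 replicate 2 and siControl replicate 2 nearly touching at 0.298 and 0.300. The STIM2 to STIM1 ratio averaged 0.228 ± 0.039 in siSGK1 and 0.265 ± 0.013 in siControl cells, and its groups overlapped (exact permutation p = 0.2, adjusted 0.25). The ATP2B1 to ATP2A2 ratio averaged 0.0891 ± 0.0071 in siSGK1 and 0.0542 ± 0.0086 in siControl cells, without overlap (exact permutation p = 0.1). The TRPV6 to TRPV4 ratio was 1.22, 1.33 and 1.15 in siSGK1 and 1.23, 1.27 and 1.54 in siControl cells, overlapping (exact p = 0.4), which does not show that they changed equally.

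**Figure D3:**
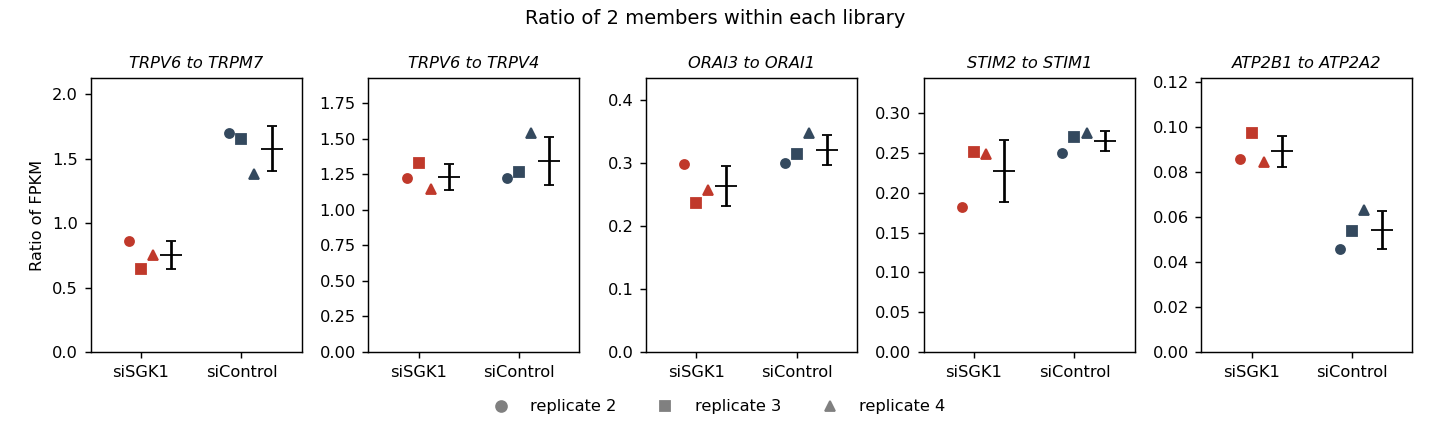
Ratio of FPKM of 2 genes within each library, siSGK1 (red) left of siControl (dark), with mean and SD (n = 3 each). The TRPV6 to TRPM7 ratio, with the deposited gene lengths, is 0.647 to 0.862 in siSGK1 and 1.38 to 1.70 in siControl libraries, and the TRPV6 to TRPV4 and STIM2 to STIM1 ratios overlap.

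Compared per deposited gene length, the levels formed a high and a low tier in both groups. In siSGK1 cells ORAI1 (12.6 FPKM), TRPM4 (12.2), ATP2A2 (11.1) and STIM1 (10.9) led, each overlapping the next, and ORAI3 (3.33), STIM2 (2.46), TRPM7 (2.15), TRPV6 (1.61), TRPV4 (1.32) and ATP2B1 (0.988) followed. In the low tier STIM2 overlapped TRPM7 and TRPV6 overlapped TRPV4. In siControl cells the order was TRPM4 (17.4 FPKM), ORAI1 (14.5), ATP2A2 (12.6), STIM1 (11.1), ORAI3 (4.64), TRPV6 (3.86), STIM2 (2.95), TRPV4 (2.90), TRPM7 (2.47) and ATP2B1 (0.683), where STIM2, TRPV4 and TRPM7 overlapped their neighbours and the others did not. TRPV6 thus held place 8 in siSGK1 and place 6 in siControl cells.

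These levels depend on the gene length behind FPKM. The deposited length of TRPV6 is 11925 bases, while its longest coding transcript in GENCODE 29 has 2928 bases, and for ATP2A2 the lengths are 13745 and 4453 bases. With the longest coding transcript as the length, TRPV6 stood at 6.57 ± 0.70 in siSGK1 and 15.7 ± 0.4 in siControl cells (FPKM with that length, SD, n = 3 each), and moved to place 5 in both groups. In siControl cells TRPV6 then lay nearer to STIM1 (18.2) than to ORAI3 (5.56), so the tiers above are those of the deposited lengths. ATP2A2 stood first, at 34.2 ± 0.9 in siSGK1 and 39.0 ± 1.5 in siControl cells, apart from TRPM4 at 19.7 ± 1.7 and 28.0 ± 1.0. All reads of a gene were kept, also any over exons outside that transcript, so these levels and places can be too high for TRPV6 and ATP2A2. Changes between groups do not depend on this choice except through the pseudocount.

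**Figure D4:**
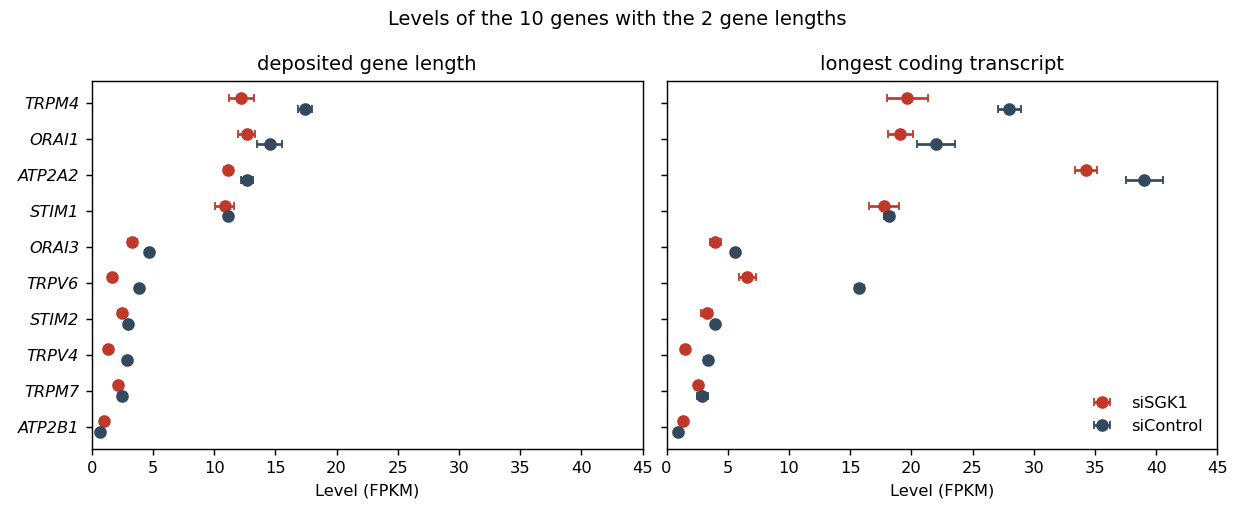
Mean level and SD (n = 3 each) of the 10 genes in siSGK1 (red) and siControl (dark) cells, in FPKM, with the deposited gene length (left) and with the longest coding transcript (right). TRPV6 in siControl cells is at 3.86 with the deposited length and at 15.7 with the transcript length, and ATP2A2 is at 12.6 and 39.0.

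The 4 heptamers that an earlier search of these same data had ranked by the change of genes carrying them in the 3' UTR were looked up in the longest annotated 3' UTR of each gene (GENCODE 29). Since they come from these data, they support nothing here. CTATGCA was in 8.51% of 10272 tested genes with a 3' UTR, whose median log2 change was -0.08, against -0.003 in genes without it. TATGCAA was in 11.4%, with medians of -0.03 and -0.005. TCGGAGA and CGGAGAA were in 2.13% and 2.45%, with medians of 0.08 and 0.07 in genes with them, and were in none of the 10 genes. TRPV6, TRPV4, TRPM4, ORAI1, STIM1 and ATP2B1 held none of the 4. The sites of the other genes are shown with the heptamer in capitals (GRCh38, 5' to 3').
ORAI3 site, chr16:30954721-30954747, plus strand: tagccccacgCTATGCAccaaacttgt
STIM2 site, chr4:27023275-27023301, plus strand: cagtgatgtaTATGCAAcattttgttg
STIM2 site, chr4:27023777-27023803, plus strand: cttgattcctTATGCAAgtggaagagt
STIM2 site, chr4:27024333-27024359, plus strand: actttaaaaaTATGCAAtcataagtga
ATP2A2 site, chr12:110346689-110346715, plus strand: aacactatttTATGCAAatattttttt
TRPM7 site, chr15:50561561-50561587, minus strand: tagaaaggtgTATGCAAgttgaatttg
STIM2 thus held 3 copies of TATGCAA, and ORAI3 a single CTATGCA. The genes with the largest falls, TRPV6, TRPV4 and TRPM4, were without a match, which says only that these letters are not in these annotated 3' UTRs.

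Other genes of calcium handling were described in 8 lists, with 138 genes in the table and 65 tested, of which 24 (36.9%) were called lower and 10 (15.4%) higher, beside 22.7% and 17.9% of all tested genes. Their median log2 change was -0.09. These counts depend on the scaling: 15 were called lower and 22 higher with total-read scaling, beside 12.9% and 36.1% of all tested genes, and 11 lower and 28 higher with TPM scaling, beside 9.8% and 47.2%. Among partners of store-operated entry 1 of 6 fell and 1 rose: CRACR2B, a calcium-binding regulator of ORAI1, fell to 1.74 ± 0.20 FPKM in siSGK1 cells, against 2.39 ± 0.06 in siControl cells, while ORAI2, the third pore subunit, rose to 6.37 ± 0.53, against 5.01 ± 0.19 FPKM (limma adjusted p = 0.0067 and 0.0063). ORAI2 measured 6.80, 5.78 and 6.53 FPKM in siSGK1 cells and 5.12, 5.13 and 4.79 FPKM in siControl cells, so ORAI2 rose while ORAI3 fell. Of 22 other TRP channel genes 4 were tested, and 1, PKD2 (polycystin-2), rose with a log2 change of 0.29 (limma adjusted p = 0.034). TRPV5, the renal paralog of TRPV6, averaged 0.0289 FPKM in siSGK1 and 0.0239 FPKM in siControl cells, on 2 to 6 reads per library.

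Release channels and further pumps held no gene called higher in the values as deposited. Of 5 tested release channels 4 fell, led by TPCN1, an endolysosomal channel, at 0.886 ± 0.063 FPKM in siSGK1 and 1.87 ± 0.06 FPKM in siControl cells (log2 change -0.77, limma adjusted p = 1.59e-04). The ryanodine receptor RYR1, the inositol trisphosphate receptor ITPR3 and TPCN2 had log2 changes of -0.29, -0.29 and -0.28, and TMCO1 was not called (0.02). With total-read scaling 2 of the 5 were called lower and 1 higher, and with TPM scaling TPCN1 alone was called lower and 1 higher. Of 7 tested pumps, exchangers and pump subunits 5 fell: the PMCA subunit NPTN, the SERCA pump ATP2A3, the plasma membrane pump ATP2B4 and the secretory pathway pump ATP2C2 had log2 changes of -0.48, -0.45, -0.39 and -0.33. With total-read scaling 3 of the 7 were called lower and 1 higher, and with TPM scaling 3 lower and 2 higher, ATP2C2 not being called with either. ATP2B4 averaged 7.04 ± 0.17 FPKM in siSGK1 and 9.41 ± 0.60 FPKM in siControl cells, above ATP2B1 in both groups. Of 4 tested voltage-gated subunits, P2X and Piezo channels 2 fell, CACNA2D2 with a log2 change of -0.61 and CACNB3 with one of -0.28. CACNB3 was not called with TPM scaling (limma adjusted p = 0.17).

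TRPV6 partners and calcium sensors held genes in both directions. Of 10 tested genes of mitochondrial uptake 2 fell and 1 rose. Those that fell were VDAC2 (log2 change -0.31) and VDAC1 (-0.14, which is positive and not called with total-read or TPM scaling). VDAC1 was also not called with quantile normalization (log2 change -0.05, limma adjusted p = 0.33). With total-read scaling 1 of the 10 was called lower and 4 higher, and with TPM scaling 1 lower and 5 higher. Of 10 tested TRPV6 partners and vitamin D transport genes 5 fell and 1 rose. These counts were 2 lower and 2 higher with total-read scaling, and 2 lower and 4 higher with TPM scaling. S100A10, which with annexin A2 helps place TRPV6 in the membrane, fell to 401.9 ± 27.7 FPKM in siSGK1 cells, against 518.8 ± 1.6 FPKM in siControl cells (limma adjusted p = 0.0012). The NHERF2 gene SLC9A3R2 and BSPRY had log2 changes of -0.37 and -0.24, and the ubiquitin ligase NEDD4L, a known target of SGK1, rose with one of 0.28. BSPRY was not called with total-read or TPM scaling (limma adjusted p = 0.097 and 0.46). Of 19 tested sensors, ER buffers and calcineurin-NFAT genes 5 fell and 6 rose. Here 4 were called lower and 11 higher with total-read scaling, and 2 lower and 11 higher with TPM scaling. The calmodulin gene CALM3 rose to 180.4 ± 9.5 FPKM in siSGK1 cells, against 124.8 ± 2.3 FPKM in siControl cells, and the ER calcium-binding chaperone CALR to 270.0 ± 14.6, against 204.9 ± 11.02 FPKM. NFATC3, a calcineurin-regulated transcription factor, and the kinase CAMKK2 fell with log2 changes of -0.65 and -0.37.

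**Figure D5:**
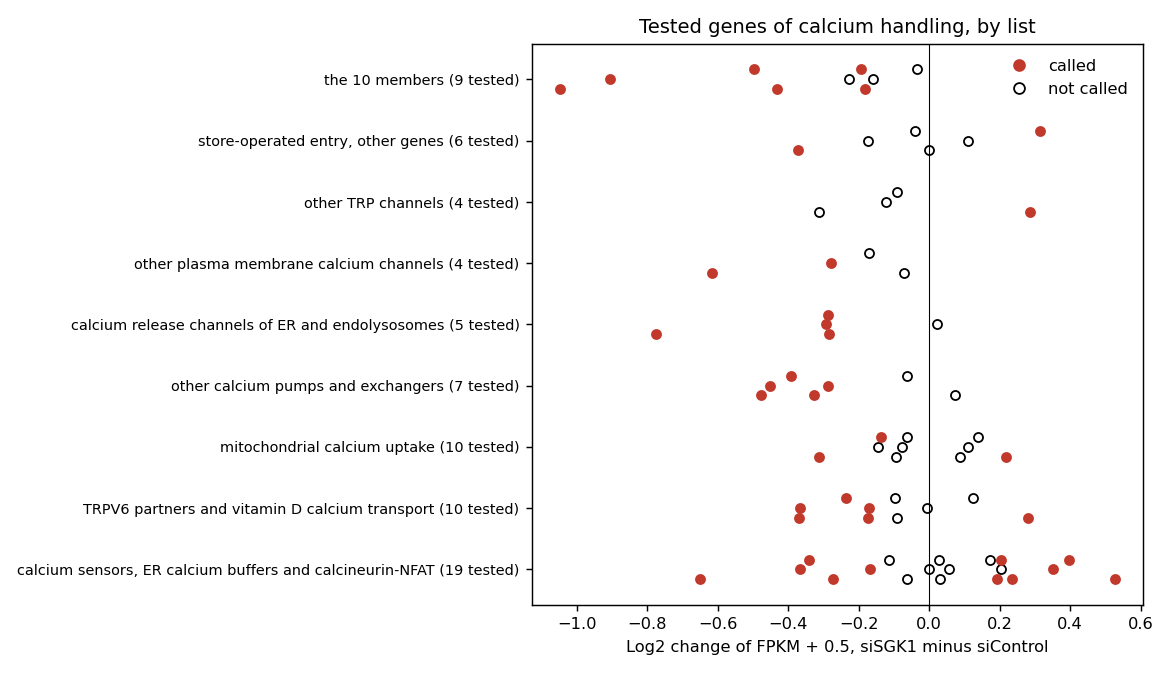
Log2 change of FPKM + 0.5, siSGK1 minus siControl, of each tested gene of the 10-gene set and of the 8 other calcium lists (filled: called by limma; open: not called; points are offset vertically for legibility). In the values as deposited the called release channels and pumps lie at negative values, and the sensors and buffers lie on both sides of 0. With TPM scaling 1 tested release channel and 2 tested genes of the pump list are called higher, none of them named above as falling.

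The tested protein-coding genes whose log2 values over the 6 libraries, centred, lay closest to those of TRPV6 among 10394 were VILL, RARRES3 and KRT4, with root mean square distances of 0.033, 0.037 and 0.038 log2 units. VILL measured 3.27, 2.71 and 3.07 FPKM in siSGK1 cells, against 6.57, 6.30 and 6.67 FPKM in siControl cells. As with TRPV6, siSGK1 replicate 3 was the lowest library. Among the genes described here TRPV4 came nearest to TRPV6, at a distance of 0.12 and in place 83, followed by TRPM4 at 0.28 and ORAI3 at 0.31.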

How the data were processed

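PolyA RNA of 6 ME180 cultures was sequenced. The deposited table holds FPKM for 58302 genes; per the submitters' processing notes the authors used bcl2fastq 2.19, HISAT2 2.0.5 and featureCounts 1.5.0-p3 with build hg19. Its coordinates are nevertheless those of GRCh38: of 57980 identifiers shared with GENCODE 29, 97.6% had the same position. The gene length column (other values of the deposited table, in bases) enters only as a divisor. FPKM times length was a whole multiple of 1 step for 100% of values above 0 (tolerance 0.001), and the implied library sizes were those of median-of-ratios size factors over 19967 genes, so a scaling to the typical gene is already in the values.

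Values were tested as log2(FPKM + 0.5) in limma 3.58.1 (R 4.3.3; empirical Bayes with intensity trend, two-sided, siSGK1 against siControl), for genes with a mean of at least 1 FPKM, after a check on simulated data. In the simulated data a small part of the genes changed and library sizes were known exactly. The check therefore does not cover data in which many genes change or the scaling is uncertain. Ratios used exact permutation tests (scipy 1.17.1). Fold changes on this scale understate those of low genes. The p-values measure the spread between these cultures. Same-numbered libraries did not deviate together and no pairing was used. The genes, lists and alternatives were chosen with earlier results of these data known. Named genes are the 10 genes, SGK1, up to 4 called genes per list with the largest absolute log2 change and the 3 genes nearest to TRPV6. TRPV5, TMCO1 and the marker genes were named after their values were seen, and the transcript length and the counts per list under other scalings were chosen after seeing the data. A gene that the rule names is not reported here.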

Additional observations from a re-analysis of the deposited data

How the results depend on the processing

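TRPV6, TRPV4, TRPM4 and ORAI3 were called lower under every alternative that tested them (14, 14, 15 and 14 settings), with log2 changes of -1.26 to -0.88, -1.13 to -0.74, -0.53 to -0.30 and -0.48 to -0.25. ORAI1 was called in 7 of 15 and ATP2A2 in 11 of 15. The count of these genes called lower was 6; it was 3 with a filter of at least 5 FPKM, where TRPV6, TRPV4 and ORAI3 are not tested, 4 with total-read and 4 with TPM scaling, and 4 to 7 with a library left out (5 without siSGK1 replicate 3). The count called higher was 0 and became 1 with TPM scaling (STIM1). With TPM scaling the log2 changes of TRPM7, ORAI1, STIM1 and ATP2A2 turned to 0.00696, 0.00253, 0.16 and 0.0148. STIM1 also turned to 0.10 with total-read scaling and to 0.019 without siSGK1 replicate 3, within -0.0768 to 0.019 over the libraries left out. Total-read and TPM scaling multiply each library by a constant and so move the median of all genes by construction. Less that median the changes of the 9 genes stayed negative. Under these scalings that is nearly fixed in advance, so it is no further support. All genes called numbered 4852, and 3773 to 4345 with a library left out. The replicate block, with same-numbered deviations correlated at 0.12, 0.01 and -0.10, gave 4560 called genes and 5 of the 9 lower; ORAI1 was then not called (limma adjusted p = 0.064). For the 5 ratios the sign-flip form keeps the direction by construction and cannot give a p below 0.25. Depth limits TRPV4, ORAI3 and ATP2B1 most, with 135 to 336 reads per library.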
